A study of Oryza sativa Indica Group with 18 samples.

Results

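Whole seedlings of the rice cultivar Annapurna exposed to 42 °C for 2 h, after a first hour at 37 °C (1 h), were compared with Annapurna seedlings kept at 28 ± 1 °C for 3 h. The groups were taken by their labels, 3 arrays each, which is 6 of the 18 arrays of the series. All seedlings were 7 days old and grown hydroponically, and both heat steps took place in light, with the air at roughly 40% relative humidity. The remaining 12 arrays hold Annapurna after 1 h at 37 °C alone, and the cultivar IR64 under the same 3 treatments. By its title the series contrasts a cultivar that tolerates heat with a susceptible one, but the labels tie neither name to either trait. The heated and control groups were both sampled 3 h after the start, so elapsed time did not differ between them, whereas the group at 37 °C was sampled after 1 h. No group was held at 42 °C without the hour at 37 °C, so the heated group measures the sequence of both steps.

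Plants answer heat through heat stress transcription factors, which switch on genes for chaperones. Small heat shock proteins hold unfolding proteins in a soluble state, HSP70 and HSP90 refold or mature them, and the HSP100 disaggregase pulls aggregates apart. A mild heat step before a harsh one is widely used to study acquired thermotolerance, in which chaperones made during the first step are in place when the second begins. Many transcripts of the first wave are known to be short lived.

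Intensities below are the deposited values of a gene's probe set, in the order of replicates 1, 2 and 3, means are given ± SD over n = 3 arrays, and log2 differences are given ± SE on the log2(intensity + 16) scale. "Rose" and "fell" are used of a gene that differed by 2-fold or more with an adjusted p under 0.05 in limma, and such a gene is called. Of 17905 genes that had their own probe set, 605 rose (3.38%) and 982 fell (5.48%) at 42 °C after 37 °C, together 8.86%. These shares are the background for all counts of list members against control below. Over all 57258 probe sets 1137 were higher (1.99%) and 1503 lower (2.62%), together 4.61%. A difference of at least 8-fold was met by 21 genes upward and 49 downward, and at least 32-fold by 6 each way. The 3 heated arrays did not overlap the 3 controls for 60.4% of the genes. The median difference over all genes was log2 -0.0027. Different genes' intensities are not compared with each other, since each probe set has its own brightness.

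**Figure D1:**
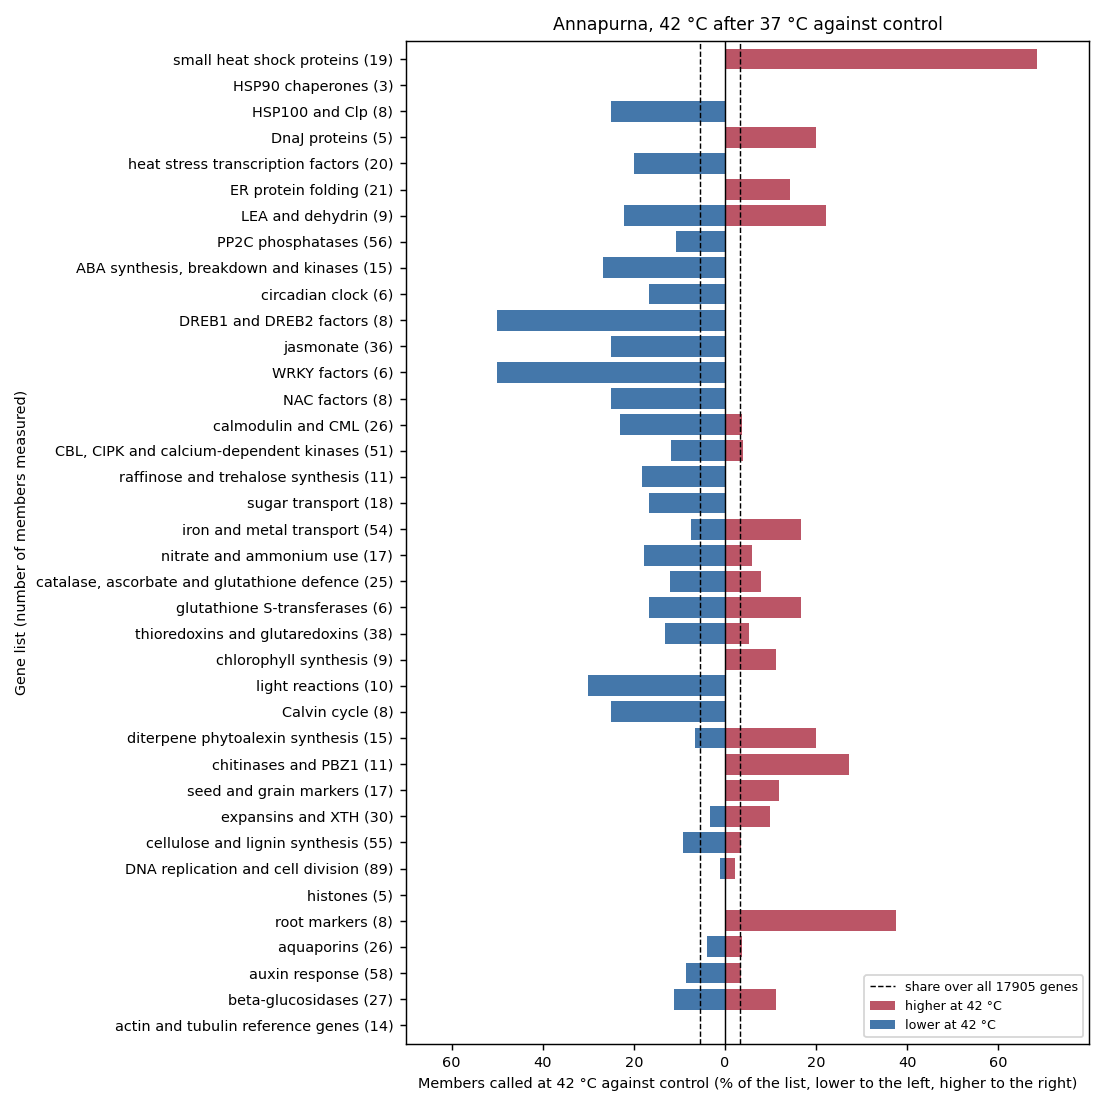
Share of each gene list called at 42 °C after 37 °C against control in Annapurna, as percent of its measured members, with falls to the left and rises to the right. Dashed lines give the shares over all 17905 genes, 3.38% higher and 5.48% lower. Small heat shock proteins had the longest bar to the right, with 13 of 19 called, and the DREB and WRKY lists had the longest bars to the left, with 4 of 8 and 3 of 6 called.

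The 6 arrays were alike in coverage: 34.85 to 34.99% of probe sets exceeded an intensity of 50. Across probe sets, which are no independent replicates, correlations were 0.9972 to 0.9991 within the groups and 0.981 to 0.9829 between them. Control replicate 1 stood apart in the actin and 18S ribosomal RNA probes. Its actin 3' signal over 5' signal was at a log2 ratio of 6.31, against 5.09 and 5.24 on the other controls and 5.15 to 5.40 on the heated arrays. Its 18S signal was 14.55 against 174.5 and 217.2. Its GAPDH 3' over 5' log2 ratio was 0.077, against 0.009 and 0.070 on the other controls and 0.066 to 0.080 on the heated arrays. Without control replicate 1, 618 genes rose and 967 fell. Control replicate 3 held a signal of AMY1.1, an amylase of the germinating grain, at 124 against 5.49 and 5.48 on the other controls and 5.47 to 5.49 on the heated arrays, and without it 633 rose and 1025 fell. The leaf gene CAB2R for a chlorophyll-binding protein read 49587 to 51336 on controls and 52212 to 54183 on heated arrays and the root gene Lsi1 read 1416, 1284 and 877 on controls and 5385, 5431 and 6161 on heated arrays, so genes of both organs of the labelled whole seedling were measured. The 3' creX control, of RNA added at hybridization, read 47091 to 54217 on controls and 39598 to 44738 on heated arrays, and the part of this in the results was not tested.

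The small heat shock proteins made up the clearest rise. Of 19 measured genes, 13 rose and 0 fell, with a list median of log2 1.08, where 3.38% of all genes rose and 5.48% fell. All heated arrays lay above all controls for 17 of the 19, while 60.4% of all genes had no overlap in either direction. HSP26.7, the chloroplast member, read 6.93, 6.52 and 6.23 on the controls and 1377, 1455 and 1525 on the heated arrays. That is from the background of the array to a strong signal on every heated array, a difference of log2 6.02 ± 0.049 (adjusted p = 1e-17). A control level near background makes the size of such a difference depend on the 16 added before the log. HSP18.0, a cytosolic class II protein, went from 61.4, 51.3 and 45.5 to 3956, 4100 and 4764 (5.96 ± 0.084, adjusted p = 3.2e-15). HSP16.9A, of cytosolic class I, went from 139, 123 and 184 to 10353, 9907 and 9338 (5.92 ± 0.092, adjusted p = 7.4e-15). No heated array came near the controls for any of these 3 genes.

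HSP23.2, a protein of the endoplasmic reticulum, read 64.8, 77.3 and 64.8 on controls and 2339, 2410 and 2077 on heated arrays (log2 4.75 ± 0.073). The class I gene hsp17.9 was already measurable without heat, at 927, 1036 and 989.9, and read 13338, 13178 and 14757 after it (3.78 ± 0.11). Smaller rises were those of HSP16.0, the peroxisomal protein (2.91 ± 0.051), HSP24.1 of mitochondria (2.87 ± 0.086), HSP17.4 of class I (2.59 ± 0.066) and HSP16.9B of class I (2.48 ± 0.076). Chloroplast, mitochondrial, peroxisomal, endoplasmic reticulum and cytosolic members were thus all among the risers. HSP18.8, HSP18.6, HSP17.7 and HSP17.9B rose by log2 1.01 to 1.08, close to the 2-fold threshold. Without control replicate 1 the count of risers was 10 of 19, HSP18.6 being at log2 0.97, and without any other single array of the comparison it was 11 to 13.

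The 6 members not called ran from log2 -0.30 in HSP26.2 to 0.79 in HSP21.9. HSP17.8 read 15.1, 17.3 and 16.5 on controls and 18, 17.9 and 18.1 on heated arrays, with 37 °C arrays at 851, 755 and 802. HSP18.1 read 8.43, 5.67 and 5.18 and 30.1, 24.3 and 13.3, with heated arrays above the controls but low. In the gene order of the reference, HSP17.4, HSP18.1 and HSP17.7 are neighbours on chromosome 3, and HSP16.9A and HSP16.9B are neighbours on chromosome 1. Of these neighbours HSP16.9A rose by log2 5.92 and HSP16.9B by 2.48, and HSP17.4 rose by 2.59 and HSP17.7 by 1.01, and the difference between genes was not tested. Class I sequences are closely related, so a probe set may also take up RNA of a relative. Only 1 of the 3 probe sets of HSP18.0 was called, and the others were at log2 -0.06 and 0.04.

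**Figure D2:**
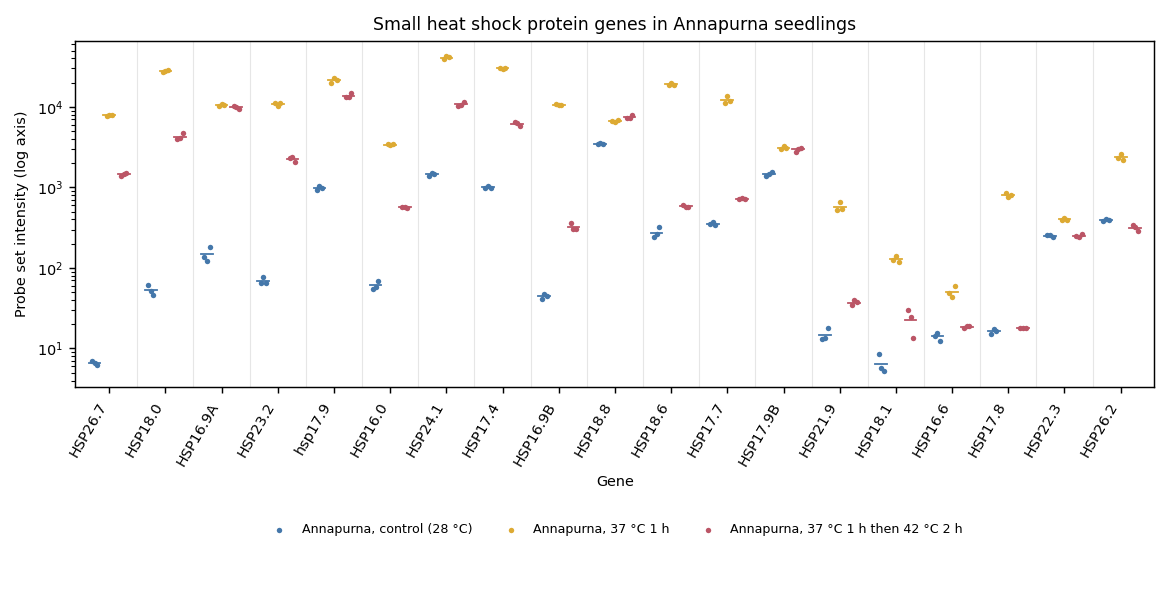
Probe set intensity on a log axis for the 19 small heat shock protein genes in Annapurna, by gene in the order of their difference at 42 °C after 37 °C. Points are single arrays and lines are means of 3 arrays for control, 37 °C for 1 h, and 37 °C for 1 h then 42 °C for 2 h. For HSP26.7 the control mean was 6.56, the 37 °C mean 7869 and the 42 °C mean 1453, and most genes stood between control and 37 °C after the second step.

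Against the group sampled after 37 °C alone, 0 of 19 small heat shock protein genes were higher and 13 were lower, with median log2 -2.28, where 2.75% of all genes were higher and 6.38% lower. HSP16.9B read 10908, 10493 and 10409 at 37 °C and 360.2, 305 and 302 after the 42 °C step, a difference of log2 -4.98 ± 0.076. HSP16.9A read 10373, 10997 and 10555 at 37 °C and 10353, 9907 and 9338 after 42 °C (-0.11 ± 0.092, not called). The hsp17.9 and HSP17.9B transcripts were also not called in that comparison (-0.63 and -0.07), and HSP18.8 was at 0.15. Temperature and elapsed time differ together between these groups and cannot be told apart.

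CLPB1, the cytosolic HSP101 disaggregase, read 181, 198 and 249.8 on controls and 306, 308 and 324 on heated arrays, which is log2 0.56 ± 0.083 and under the 2-fold threshold, after 8216, 8525 and 8997 at 37 °C. CLPB-M, a related disaggregase, read 181, 134 and 139 and 74.1, 70.1 and 72.4 (-0.92 ± 0.099, not called), with 2205, 2247 and 2134 at 37 °C. The heated arrays lay above all controls for CLPB1 and below all controls for CLPB-M.

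Among 8 HSP100 and Clp genes 0 rose and 2 fell, these being CLPD1, a plastid member, at log2 -1.49 ± 0.14, and CLPD2 at -1.03 ± 0.14, which was not called after quantile normalization or without heated replicate 3. The 3 HSP90 genes gave 0 calls in either direction under limma, HSP81-1 being at 0.29 ± 0.049 and HSP81-3 at -0.11 ± 0.047. All 3 were at an unadjusted p under 0.05, while 15128 of all 57258 probe sets had an adjusted p under 0.05 without the fold threshold. Of 5 DnaJ cochaperone genes only DJC79 rose (1.21 ± 0.12).

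Protein folding genes of the endoplasmic reticulum rose in 3 of 21 cases and fell in 0, together 14.3% against 8.86% over all genes. Their median was log2 0.13. PDIL2-3, a protein disulfide isomerase, went from 1115, 967 and 1049 to 3726, 3542 and 3886 (log2 1.82 ± 0.058). CRO1, which is calreticulin by its synonym CRT1, went from 9120, 8030 and 8125 to 17428, 17508 and 18467 (1.08 ± 0.049). The remaining one was DJC79, named above, and PDIL1-1, the uncalled member with the highest signal, was at 0.47 ± 0.062.

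By the probe set of highest mean, no heat stress transcription factor was called above its control level after the second step. Of 20 measured, 0 rose and 4 fell by that probe set, with a median of log2 -0.52. Another probe set of HSFB2C was called higher, at log2 4.90. HSFB2A, of the class B factors, several of which act as repressors, read 1375, 1390 and 1153 on controls, 2949, 2675 and 2641 at 37 °C and 171, 160.4 and 153 after 42 °C. Every heated array lay far under the controls, a difference of log2 -2.89 ± 0.099 (adjusted p = 2.5e-11). HSFA3 (-1.50 ± 0.15), HSFC2A (-1.44 ± 0.12) and HSFB1 (-1.30 ± 0.11) fell as well.

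HSFA2A, of the A2 subclass that sustains heat responses in Arabidopsis, read 42.2, 37.3 and 34.5 on controls, 6854, 7130 and 7389 at 37 °C and 18.8, 23 and 15.6 after the second step. The heated arrays were under all controls, but with log2 -0.62 ± 0.086 the gene was not called. HSFA2C read 189, 141 and 120, 3474, 3419 and 3571 and 141, 138 and 211 in the same order, with control and heated arrays overlapping (0.11 ± 0.16, not called). The other A2 members were not called either: HSFA2B at -0.28 ± 0.091, HSFA2D at 0.90 ± 0.11 and HSFA2E at 0.03 ± 0.067.

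HSFB2B was at -0.86 ± 0.11 and HSFB2C at -0.69 ± 0.066, not called. For HSFB2C the probe sets disagreed, since a second was at log2 4.90 and called, and another at 0.94. A second probe set of HSFA2D was at log2 -1.72 and called, against the direction of the first. HSFA2C and HSFA2D share their loci in the annotation with the acireductone dioxygenase genes ARD1 and ARD2, so their signal cannot be assigned to the factor alone. Against 37 °C, 0 of the 20 factors were higher and 9 lower, where 2.75% of all genes were higher and 6.38% lower. HSFA2A was lower by log2 -7.67 ± 0.086.

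The cold and drought factors of the DREB1 group gave some of the largest falls. Of 8 DREB1 and DREB2 genes 4 fell and 0 rose, with a median of log2 -1.22. DREB1B read 1336, 1339 and 1054 on controls and 40.1, 28.2 and 26.2 after heat (log2 -4.73 ± 0.13, adjusted p = 3.1e-12). DREB1G went from 746, 857 and 407 to 10.2, 14.1 and 9.7 (-4.59 ± 0.21), and DREB1A from 590.4, 627 and 412 to 29.2, 36.8 and 35 (-3.47 ± 0.13). The heated arrays were at the lower end of the array's range, where the 16 added before the log bears on the sizes, and control replicate 3 was the lowest control for each of these genes.

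DREB1E fell as well (-2.12 ± 0.27). DREB2A, of the group tied to drought and heat, read 83.1, 72.1 and 86.8, 198, 228 and 225 at 37 °C and 65.4, 62.1 and 56.4 after the second step (-0.32 ± 0.12, not called), and DREB2B was at 0.74 ± 0.10, not called. DREB1C and DREB2D were near background on all 6 arrays. At 37 °C the differences from control were -3.63 ± 0.13 for DREB1B, -2.58 ± 0.21 for DREB1G and -1.29 ± 0.13 for DREB1A.

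In the circadian clock, the morning gene CCA1, also named LHY, fell and the other 5 members did not pass the test. CCA1 read 14057, 12606 and 11889 on controls and 499, 479.7 and 534 after heat, with no overlap (log2 -4.63 ± 0.059, adjusted p = 1.2e-15). It had been at 6414, 6578 and 6834 at 37 °C (-0.95 ± 0.059 against control, not called). The pseudo-response regulators, which act through the day and evening, were at -0.75 ± 0.074 for OsPRR37, 0.35 ± 0.039 for OsPRR73, -0.26 ± 0.094 for OsPRR95 and 0.21 ± 0.088 for OsPRR1, the rice TOC1 gene. A second probe set of OsPRR37 was called lower, at log2 -1.16 (adjusted p = 0.00012, limma). GI was at 0.53 ± 0.053. OsPRR95 and OsPRR1 had read 333, 336 and 360.1 and 106, 86.4 and 108 at 37 °C, against 1571, 1618 and 1790 and 554, 507 and 547 at 42 °C, and both were called higher at 42 °C than at 37 °C (2.22 and 2.25). The control and 42 °C groups were both sampled after 3 h, while the labels state no clock time of sampling.

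Abscisic acid is the hormone of water shortage, and group A members of the PP2C protein phosphatases shut off its signal. PP2C genes fell in 6 of 56 cases and rose in 0, together 10.7% against 8.86% over all genes, with a median of log2 -0.21. PP2C68 read 164, 199 and 214 on controls, 640.5, 642 and 561 at 37 °C and 24, 25.3 and 21 after 42 °C (log2 -2.40 ± 0.16, adjusted p = 2e-08). OsPP2C30 followed the same course, with 799.5, 762 and 562, 2363, 2612 and 2465 and 146, 149 and 159.6 (-2.10 ± 0.13). Both stood above control after the first step and under every control array after the second.

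OsPP2C09 (-1.94 ± 0.065) and ABIL1, which is OsPP2C06 by its synonym (-1.87 ± 0.092), also fell. BIPP2C1, the uncalled phosphatase with the highest signal, was at 0.23 ± 0.041, and its second probe set was called at log2 -1.51. Among 15 genes of abscisic acid synthesis, breakdown and kinases 0 rose and 4 fell, with a median of log2 -0.49. ABA8OX1, which breaks the hormone down, went from 1528, 1290 and 1071 to 189.5, 203 and 216 (-2.57 ± 0.12). Of the phytoene synthases, which open carotenoid and hence abscisic acid synthesis, PSY3 (log2 -2.06) and PSY2 (-1.46) fell, and PSY1 was at -0.95 ± 0.037 and not called. SAPK1, a kinase of the SnRK2 family, was at -1.69 ± 0.055 and called.

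LEA and dehydrin genes, whose proteins shield drying cells and which respond to abscisic acid, went different ways. Of 9, 2 rose and 2 fell, together 44.4% against 8.86% over all genes, with a median of log2 0.39. At 37 °C all 9 had been called higher than control, where 5.57% of all genes were higher. RAB16D read 186, 226 and 387 on controls and 2385, 2516 and 2278 after heat (log2 3.16 ± 0.17), having read 2558, 2550 and 2405 at 37 °C (-0.07 between the steps, not called). RAB16C rose by 1.20 ± 0.17. RAB16B read 814, 884 and 974, 11669, 12338 and 11965 at 37 °C and 759, 806 and 828 after the second step, so that control and 42 °C arrays overlapped (-0.15 ± 0.082).

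The dehydrin genes Dhn1 (-1.11 ± 0.053) and rab25 (-1.17 ± 0.12) fell, rab25 from 59, 53 and 42.1 to 14.7, 15.1 and 11.4, at the lower end of the array's range. RAB21 stood at the threshold with 1.00 ± 0.15: it was not called, but was called without control replicate 3 (1.11) or without heated replicate 3 (1.06). A second probe set of RAB21 was called higher, at log2 1.25 (adjusted p = 9.2e-08, limma). Against 37 °C, 7 of the 9 genes were lower and 0 higher, where 6.38% of all genes were lower and 2.75% higher.

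**Figure D3:**
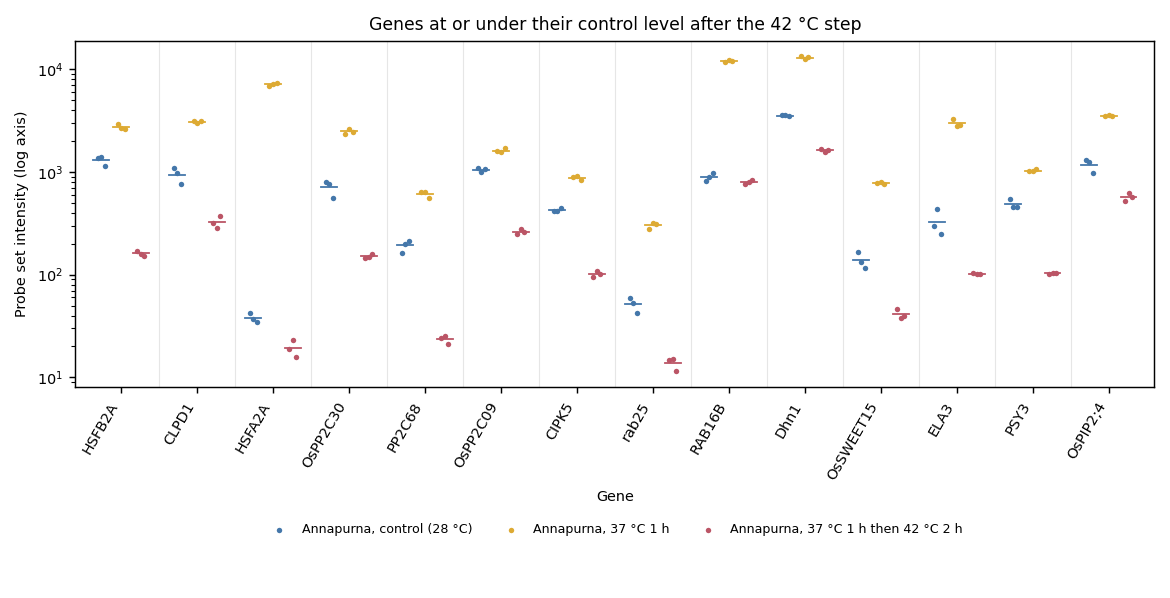
Probe set intensity on a log axis for 14 Annapurna genes that stood at or under their control level after the 42 °C step, chosen for this course after their values were seen. Points are single arrays and lines means of 3 arrays for control, 37 °C for 1 h, and 37 °C for 1 h then 42 °C for 2 h. All 14 had higher means at 37 °C than in control, for example 2480 against 708 in OsPP2C30, and lower means at 42 °C, 151 in that gene. HSFA2A and RAB16B were not called at 42 °C against control.

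Of 36 jasmonate genes 9 fell and 0 rose, with a median of log2 -0.36. JAZ proteins repress jasmonate responses and are themselves made when the hormone is sensed. JAZ13 read 877, 1141 and 1030 on controls and 40.3, 61.2 and 40 after heat (log2 -4.04 ± 0.16, adjusted p = 8.1e-11), and JAZ9 read 687, 713 and 739 and 48, 42.6 and 62.4 (-3.45 ± 0.13). Neither gene's heated arrays approached the controls.

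JAZ10 (-1.79 ± 0.11), BHLH148, a partner of JAZ proteins in rice (-2.76 ± 0.14), and AOS, an allene oxide synthase of jasmonate synthesis (-2.31 ± 0.088), were also called lower. JAZ7 was at 0.09 ± 0.060, not called, with overlapping arrays. The WRKY factors of defence fell in 3 of 6 cases and rose in 0: these were WRKY71 (log2 -2.24), WRKY24 (-1.14) and WRKY76 (-1.06), the last of them close to the threshold. Of 8 NAC factors 2 fell, NAC048 (-1.54 ± 0.046) and NAC068 (-1.07 ± 0.14), and NAC068 was not called without control replicate 3 or heated replicate 3.

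Of 26 calmodulin and calmodulin-like genes 6 fell and 1 rose, together 26.9% against 8.86% over all genes. Their median was log2 -0.38. CML31 went from 1555, 1697 and 1756 to 279, 315 and 234 (log2 -2.54 ± 0.12), and CML15 (-2.08), CML10 (-1.96) and CML16 (-1.86) fell. CML29 was the riser, from 544, 625 and 569 to 2396, 2576 and 2947 (2.15 ± 0.068). CaM-3, with the highest uncalled signal, was at -0.44 ± 0.046.

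Of 51 CBL, CIPK and calcium-dependent kinase genes, which pass calcium signals on, 2 rose and 6 fell, together 15.7% against 8.86% over all genes. Their median was log2 -0.10. CIPK10 rose from 181, 152 and 115 to 969, 692 and 862 (log2 2.38 ± 0.13), a level not seen at 37 °C (195, 164 and 189.7). CIPK23, a regulator of potassium and nitrate transporters in Arabidopsis, rose 2.46-fold, while its second probe set was at -0.26. CIPK5 (-1.90 ± 0.079), CIPK3 (-1.54 ± 0.094), CIPK1 (-1.37 ± 0.054) and CBL4 (-1.35 ± 0.16) were called lower.

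Sugar and trehalose genes that passed the test were lower. Of 18 sugar transporters 3 fell and 0 rose, together 16.7% against 8.86% over all genes. The 3 that fell were of the SWEET family that lets sugars out of cells. OsSWEET2b read 767, 847 and 850.1 on controls and 44.8, 37.3 and 29.4 after heat (log2 -3.99 ± 0.14, adjusted p = 3.3e-11). OsSWEET15 read 168, 132 and 117, then 775, 797 and 768 at 37 °C, and 46.1, 37.5 and 39.7 after 42 °C (-1.43 ± 0.12), and OsSWEET1b was at -1.34 ± 0.092. The most brightly hybridizing member not called, OsSWEET1a, was at -0.59 ± 0.053.

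Among 11 raffinose and trehalose genes 0 rose and 2 fell, both trehalose phosphate phosphatases, OsTPP7 (-1.41 ± 0.089) and OsTPP9 (-1.36 ± 0.090). Beta-glucosidases, which release hormones, defence compounds and cell wall sugars from glucosides, split 3 up and 3 down among 27. Together 22.2% of them were called, against 8.86% over all genes. BGLU19 fell from 1287, 1380 and 1138 to 70.1, 64.6 and 35.5 (-4.17 ± 0.15), and BGLU22 (-2.32) and BGLU31 (-1.80) fell too. BGLU26 (1.74 ± 0.14), BGLU33 (1.27 ± 0.10) and BGLU27 (1.05 ± 0.049) rose, and without control replicate 3 the risers numbered 5.

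Iron and metal transport genes rose in 9 and fell in 4 of 54 cases, together 24.1% against 8.86% over all genes. The list median was log2 0.03. YSL15, which takes up iron bound to its plant chelator in rice roots, read 30.9, 27.6 and 26.3 on controls, 35, 32.4 and 30.3 at 37 °C and 321, 371 and 369 after 42 °C (log2 3.06 ± 0.089, adjusted p = 4.6e-12). YSL13, of the same transporter family, went from 103, 76.4 and 75.6 to 619, 616 and 676 (2.70 ± 0.11). NAS2, a nicotianamine synthase that makes the chelator precursor, went from 1384, 1385 and 1023 to 6647, 6585 and 7714 (2.46 ± 0.12). All heated arrays lay above all controls for the 3 genes.

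ZIP2, of the zinc and iron transporter family, rose by 1.89 ± 0.20, and Nrat1, an aluminium transporter of rice roots, by 1.31 ± 0.089 after 224, 180 and 223 at 37 °C. NAS1 was at 0.91 ± 0.040, not called. Calls in the other direction were those of 0sFRO1 (-1.73 ± 0.094), LPR2 (-1.67 ± 0.12), MTP4 (-1.66 ± 0.099) and MTP5 (-1.57 ± 0.10). Compared with 37 °C, 10 of 54 metal genes were higher and 3 lower, where 2.75% of all genes were higher and 6.38% lower.

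Of 8 root markers, 5 were also in the metal list (YSL15, NAS1, NAS2, IRT1 and NRAMP5). Among the 8, 3 rose, which were YSL15, NAS2 and the silicon channel gene Lsi1, 0 fell and 5 were not called. Lsi1 read 1416, 1284 and 877 on controls, 1349, 1482 and 1400 at 37 °C and 5385, 5431 and 6161 after 42 °C (log2 2.26 ± 0.17). The silicon exporter Lsi2, which serves in the same root cells, read 1072, 1205 and 859, 172, 145 and 167 and 949, 1036 and 926 in that order (-0.09 ± 0.18, not called), and the root water channel TIP2-1 was at -0.90 ± 0.059, not called. NRAMP5, the manganese uptake gene, was at -0.26 ± 0.083 and IRT1 at -0.01 ± 0.11.

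The summed intensity of the 8 root markers was 16844 to 19771 on controls, 16677 to 16709 at 37 °C and 28851 to 31294 after 42 °C, while the sum of 10 light reaction genes was 152611 to 155512 on controls and 155920 to 165295 after 42 °C. The root sum includes the risers YSL15, NAS2 and Lsi1, so it is no separate gauge of root share. The other 5 markers were not called. The part of root share in the rises of metal genes was not tested. In whole seedlings, a larger share of an organ and more RNA of a gene per cell cannot be told apart.

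Nitrogen genes were lower in 3 of 17 cases and higher in 1, together 23.5% against 8.86% over all genes. NIA1, a nitrate reductase, read 24536, 24913 and 25622 on controls, 2363, 2306 and 2304 at 37 °C and 10149, 10445 and 10005 after 42 °C (log2 -1.29 ± 0.039). It was thus called higher than at 37 °C (2.13 ± 0.039) and still under all controls. The ammonium transporter gene AMT1 (log2 -1.58) fell, as did Fd-GOGAT, a glutamate synthase, at the threshold (-1.01). AMT1-2 (1.01 ± 0.20) was called higher, but not without control replicate 3 (0.83) or heated replicate 2.

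In defence against oxidants, 2 of 25 genes rose and 3 fell, with a median of log2 0.21. The risers were both catalases, which break down hydrogen peroxide. CAT-A read 8172, 7292 and 8100 on controls, 6590, 6730 and 6832 at 37 °C and 20542, 21239 and 20134 after 42 °C (log2 1.39 ± 0.054), and CAT-B read 6089, 6720 and 6222 and 12831, 13394 and 13281 (1.05 ± 0.063). The ascorbate peroxidase APX4 (-1.03 ± 0.091) and the methionine sulfoxide reductases MSRB1 (-1.78 ± 0.064) and MSRA4 (-1.14 ± 0.073) fell, and APX2 was at 0.16 ± 0.034, not called.

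Of 38 thioredoxin and glutaredoxin genes 2 rose, OsTrx08 (1.08 ± 0.082) and GRXS2 (1.12 ± 0.078), and 5 fell, among them OsTrx03 (-1.48 ± 0.082), GRXC1 (-1.47 ± 0.087), the nucleoredoxin gene OsNrx2 (-1.41 ± 0.083) and the thioredoxin reductase gene OsNTRA (-1.41 ± 0.11). The glutathione transferase GSTU6 fell from 3166, 2896 and 3264 to 730.4, 725 and 776 (-2.04 ± 0.097), and GST1 was called higher at the threshold (1.05 ± 0.11).

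Photosynthesis genes that passed the test were lower, and 1 chlorophyll gene was higher. PORA, the light-dependent protochlorophyllide reductase, read 2498, 2550 and 2735 on controls, 5791, 6206 and 6035 at 37 °C and 13097, 13676 and 15026 after 42 °C (log2 2.42 ± 0.055, adjusted p = 3.6e-13). It was the only riser among 9 chlorophyll genes, of which 0 fell, together 11.1% called against 8.86% over all genes. CHLH, of magnesium chelatase, was at -0.62 ± 0.072, not called. Of 10 light reaction genes 0 rose and 3 fell: NDH-M, of the chloroplast NAD(P)H dehydrogenase complex, from 1837, 1742 and 1751 to 371, 405 and 410.2 (-2.12 ± 0.057), PSB28 of photosystem II (-1.79), and LFNR1, a ferredoxin reductase (-1.05). CAB2R was at 0.07 ± 0.038, not called.

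Of 8 Calvin cycle and fructose bisphosphatase genes 2 fell. CFBP1, the cytosolic enzyme of sucrose synthesis, went from 8985, 8643 and 8734 to 1389, 1472 and 1475 (-2.59 ± 0.072, adjusted p = 2.9e-12), and FBPase from 5228, 4981 and 4639 to 1325, 1336 and 1458 (-1.84 ± 0.044). OsrcaA1, the Rubisco activase, was at -0.48 ± 0.057, not called. PDX12, of the vitamin B6 synthesis family, read 900.1, 952 and 833 on controls, 22.9, 18.4 and 22.8 at 37 °C and 33, 25.4 and 31.1 after 42 °C (-4.32 ± 0.072).

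Of 15 genes for diterpene phytoalexins, the antifungal compounds of rice, 3 rose and 1 fell, with a median of log2 -0.0022. CYP71Z7 went from 53.5, 55.3 and 67.6 to 322, 318 and 316 (log2 2.17 ± 0.28), CPS2 from 25.4, 28.7 and 25.9 to 124, 132 and 88 (1.60 ± 0.23) and KSL7 from 91.3, 59.8 and 78.3 to 186, 188 and 192 (1.16 ± 0.13). The risers are assigned to the phytocassane branch, and the gene that fell, CPS4 (-1.59 ± 0.17), to the momilactone branch. Each of the risers had lower means at 37 °C than in control, 23.3, 8.04 and 53.7 against 58.8, 26.6 and 76.4, none of them called.

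Among 11 genes, which are chitinases and PBZ1, a defence protein of the PR10 family, 3 rose and 0 fell. Together these were 27.3% against 8.86% over all genes. PBZ1 read 4060, 3894 and 3671 on controls and 11787, 12370 and 13320 after heat (log2 1.68 ± 0.16), Cht11 rose by 1.34 ± 0.13 and Cht1 by 1.61 ± 0.24. Cht1 started low, and control replicate 1 was its lowest control, at 39.7. Cht2 was not called by its probe set of highest mean, but another was called higher, at log2 1.22 (adjusted p = 0.0005, limma).

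Cell wall genes moved both ways. Calls covered 13.3% of expansins and xyloglucan enzymes and 12.7% of cellulose and lignin genes, against 8.86% of all genes. Expansins and xyloglucan enzymes, which loosen walls, rose in 3 of 30 cases, EXPB7 (2.14 ± 0.083), EXPB6 (1.27 ± 0.076) and EXPA7 (1.17 ± 0.10), and fell in 1, EXLA4 (-1.06 ± 0.11), the latter not called without control replicate 3 or heated replicate 2. EXPA7 has 2 further probe sets at background. Of 55 cellulose and lignin genes 2 rose and 5 fell. LAC7, a laccase, rose from 687, 828 and 1072 to 4253, 4234 and 3902 (2.26 ± 0.12) and 4CL-3 by log2 1.13, while CAD3 (-2.18 ± 0.048), 4CL.2 (-1.76 ± 0.073), LAC10 (-1.60 ± 0.12) and LAC24 (-1.47 ± 0.25) were lower. PAL was spread over 13367 to 22130 on heated arrays and 16235 to 21336 on controls (-0.06 ± 0.18, not called), with another probe set called at log2 1.42.

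Few growth and housekeeping genes were called. Of 89 DNA replication and cell division genes 2 rose (CKS1 1.26 ± 0.12, CDKF-3 1.06 ± 0.12) and 1 fell (CYCD5-2 -1.05 ± 0.073), together 3.37% against 8.86% of all genes. OsPCNA, the replication clamp, read 2361, 2517 and 2472 on controls, 1005, 1034 and 998 at 37 °C and 2646, 2857 and 2753 after 42 °C (0.17 ± 0.045, not called). The 5 histone genes and the 14 actin and tubulin genes gave 0 calls in either direction under limma, with medians of log2 0.37 and 0.15. Of them 4 and 9 genes were at an unadjusted p under 0.05. Without the fold threshold, 15128 of all 57258 probe sets had even an adjusted p under 0.05.

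Auxin genes were lower in 5 of 58 cases and higher in 2, together 12.1% against 8.86% over all genes. PIN5A, of the auxin carrier family, went from 782, 706 and 689 to 158, 182 and 179.9 (-1.97 ± 0.095), and ARF15 (-1.21) and GH3.7 (-1.14) also fell, while PIN3A (1.25 ± 0.082) and IAA13 (1.04 ± 0.062) rose. Of 26 aquaporins, Lsi1 rose and OsPIP2;4 fell (-1.01 ± 0.091), together 7.69% against 8.86% over all genes. OsPIP2;4 was close to the threshold and not called after quantile normalization. A splicing factor gene outside the lists, RSZ21A, was among the larger rises, from 313, 436 and 486 to 3841, 3638 and 2888 (3.03 ± 0.15), its other probe sets reading log2 2.78, which was called, and 0.36, which was not. Among the larger falls outside the lists were APR-like1 (-3.05 ± 0.11), the potassium transporter HAK27 (-2.66 ± 0.13) and MYB2 (-2.59 ± 0.18).

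Grain markers were checked since seedlings of this age can still carry the grain, and 11.8% of them were called against 8.86% of all genes. Of 17, 2 rose and 0 fell: LTP-2, a lipid transfer protein, from 17.6, 17.8 and 14.9 to 253, 298 and 238 (log2 3.08 ± 0.088), and the seed globulin GLB from 898, 783 and 956 to 2931, 3200 and 3237 (1.81 ± 0.078). The summed intensity of the 17 markers was 1292 to 1559 on controls, 2394 to 2543 at 37 °C and 3611 to 3950 after 42 °C. This sum includes the risers LTP-2 and GLB, so it is no separate gauge of grain tissue. The amylase AMY1.3 (-0.11 ± 0.071) and the protease EP3A (-0.03 ± 0.42) were not called, and 12 of the 17 markers read under 16 on all heated arrays. The part of grain tissue in the results was not tested.

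Genes without a name beyond a number made up most calls, since 1587 genes were called and 278 of them carried a name, which is 11.3% of the 2458 named genes. The largest rises there were those of genes 4328933, from 20, 24 and 34.4 to 3294, 3038 and 3489 (log2 6.30 ± 0.092), and 4335556, from 140.1, 152 and 129 to 7549, 7626 and 7710 (5.61 ± 0.067). The largest falls were those of 4327573, from 8508, 7445 and 5882 to 36, 31.6 and 37.5 (-7.14 ± 0.15), and 4334321, from 8044, 7389 and 7534 to 75.4, 87.8 and 75.8 (-6.33 ± 0.076). The numbers are Entrez gene IDs, and the tables used here give no product for them.

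The second step was set beside the first. Against 37 °C alone, 492 genes were higher (2.75%) and 1142 lower (6.38%) after 42 °C, together 9.13% (4.49% of probe sets). Against control, 997 genes had been higher (5.57%) and 849 lower (4.74%) at 37 °C, together 10.3%. The 2 comparisons with control share the control arrays, so only values are set side by side. HOX24, a homeodomain factor, read 25, 28.1 and 19.3 on controls, 3032, 3281 and 3088 at 37 °C and 6.93, 6.91 and 6.96 after 42 °C, a difference of log2 -7.10 between the heat steps. ELA3 read 301, 434 and 251, 3282, 2829 and 2851 and 104, 102 and 102 (-4.66 between the steps and -1.50 ± 0.15 against control).

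In the other direction, Nrat1 was higher than at 37 °C by log2 4.15, CYP71Z7 by 3.10, YSL15 by 2.93 and the cytokinin response regulator RR9 by 2.93. RR9 read 1423, 1404 and 1308 on controls, 235, 246 and 208 at 37 °C and 1932, 1924 and 1701 after 42 °C (0.42 ± 0.079 against control, not called). Lsi2, OsPCNA, NIA1 and RR9 were low at 37 °C and at or nearer their control level after the second step.

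IR64 under the same steps gave an independent set of 6 arrays. There 1155 genes were higher (6.45%) and 909 lower (5.08%), together 11.5%, at 42 °C after 37 °C. Of Annapurna's 605 higher genes 371 were also higher in IR64, which is 61.32% of Annapurna's and 32.12% of IR64's, and 4 were lower there. Of the 982 lower genes 494 were also lower in IR64, 50.31% of Annapurna's and 54.35% of IR64's, and 8 were higher. The difference between the responses was tested directly: Annapurna's response was larger or less negative for 333 genes (1.86%) and smaller or more negative for 654 (3.65%), together 5.51%. Among genes called in Annapurna the difference was called for 109 of the risers (18.02%) and 260 of the fallers (26.48%). After quantile normalization the split over probe sets changed from 615 (1.07%) and 1115 (1.95%), together 3.02%, to 822 and 801, so which direction prevailed depended on the scaling.

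**Figure D4:**
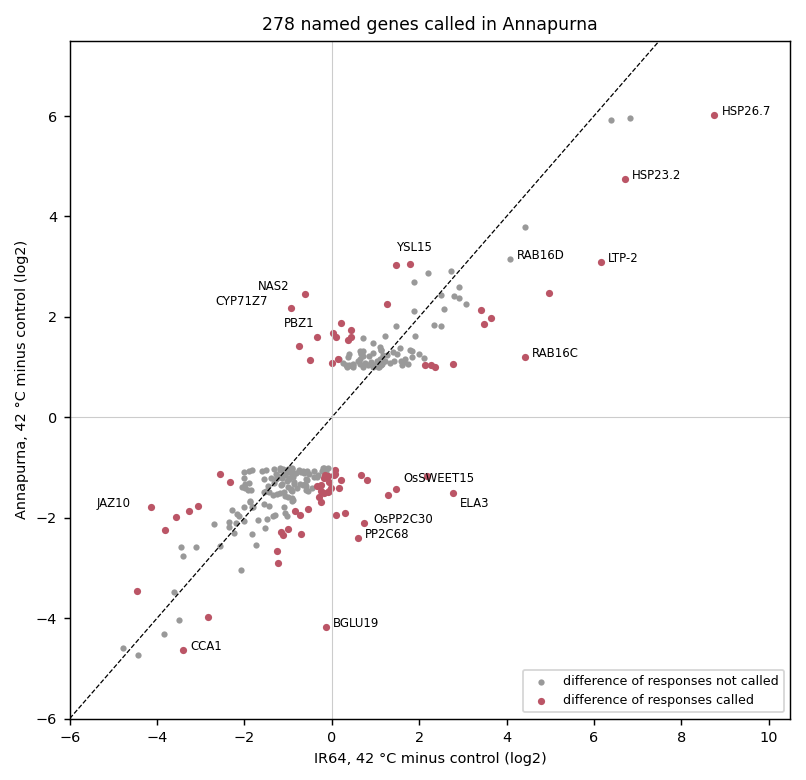
Log2 difference of 42 °C after 37 °C from control in Annapurna (vertical axis) and in IR64 (horizontal axis) for the 278 named genes called in Annapurna, with the line of equal response. Red points are the 76 genes whose difference of responses was called, 24 of them above the line and 52 below. HSP26.7 lay at 6.02 in Annapurna and 8.76 in IR64.

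IR64 control replicate 3 carried a grain signal, AMY1.1 at 3532 against 37.9 and 41.6, and the summed grain markers were 868.8, 931.9 and 4436 on IR64 controls and 15092 to 16601 on IR64 arrays at 42 °C. Without that array the probe sets with a called difference of responses numbered 1676 in place of 1730. The part of grain tissue in the differences from IR64 was not tested.

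Small heat shock proteins had a smaller response in Annapurna than in IR64 in 8 of 19 cases and a larger one in 0. Over all genes the response was smaller for 3.65% and larger for 1.86%. Of the 8, HSP16.6, HSP18.1 and HSP21.9 were not called in Annapurna. HSP26.7 read 1377, 1455 and 1525 on heated Annapurna arrays and 9191, 9164 and 10603 on heated IR64 arrays, from 6.26, 6.19 and 6.38 on IR64 controls, and the responses differed by log2 -2.73 ± 0.069 (adjusted p = 1.2e-11). HSP16.9B reached 360.2, 305 and 302 in Annapurna and 2210, 2059 and 1823 in IR64 (-2.49 ± 0.11). HSP18.1, low in heated Annapurna, read 119, 105 and 138 on IR64 controls and 11722, 11956 and 12562 after heat (-5.71 ± 0.19). HSP23.2 (-1.96 ± 0.10) and HSP18.6 (-1.73 ± 0.18) also differed. HSP16.9A (-0.46 ± 0.13), hsp17.9 (-0.65 ± 0.15), HSP17.4 (-0.31 ± 0.093) and HSP18.0 (-0.87 ± 0.12) had a difference that was not called. CLPB1 rose in IR64 (log2 1.60 ± 0.083) and the difference of -1.05 ± 0.12 was called. Of the heat stress factors 5 of 20 had a lower response in Annapurna and 0 a higher one, HSFB2A among them (-1.66 ± 0.14).

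LEA and dehydrin genes had the lowest median difference of the 38 lists, at log2 -2.77. A smaller response in Annapurna was called for 7 of 9, against 3.65% of all genes. In IR64 8 of 9 rose, against 6.45% of all genes. RAB16B read 187, 190.3 and 236 on IR64 controls and 1962, 2190 and 2306 on IR64 heated arrays, against 814, 884 and 974 and 759, 806 and 828 in Annapurna (-3.46 ± 0.12, adjusted p = 1.9e-10). RAB16C (-3.23 ± 0.23), RAB21 (-2.92 ± 0.21) and rab25 (-3.36 ± 0.17) differed as well. The second probe set of RAB21 differed by -4.44 ± 0.13. LTP-2 reached 2145, 2012 and 2028 in IR64 (-3.08 ± 0.13). Dehydrins are also made in ripe grain, and the part of grain tissue in these differences was not tested.

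Some phosphatases that fell in Annapurna were not called in IR64. OsPP2C30 read 127, 162 and 189 and 289.8, 283 and 255 there (-2.84 ± 0.18 between the responses), and PP2C68 read 16.5, 31.4 and 29.2 and 58.8, 34 and 48.3 (-2.99 ± 0.22). IR64 controls were thus already low for both, far under the Annapurna controls. The same holds for BGLU19, at 13.2, 13.1 and 13.2 on IR64 controls (-4.03 ± 0.21), and for OsTPP7, at 5.05, 4.92 and 5.03 (-1.39 ± 0.13), which are at the lower end of the array's range. With the value added before the log, BGLU19 and OsTPP7 could not be called lower in IR64, and PP2C68 had little room to be. Whether heat lowers these genes less in IR64 cannot be read from their differences. OsPP2C09 (-2.03 ± 0.091), CIPK5 (-2.20 ± 0.11), OsSWEET15 (-2.90 ± 0.17) and ELA3 (-4.27 ± 0.22) differed in the same direction.

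Some metal, phytoalexin and defence genes differed the other way. NAS2 read 2557, 2616 and 1920 on IR64 controls and 1464, 1547 and 1550 after heat, against the rise in Annapurna, and the responses differed by log2 3.08 ± 0.17 (adjusted p = 2.3e-08). NAS1 fell in IR64 from 9489, 9321 and 8716 to 2118, 2091 and 2183 (3.01 ± 0.057). YSL15 rose in both, with IR64 arrays higher at each step, 150.1, 160.4 and 118 and 532, 516 and 554, and a difference of 1.26 ± 0.13.

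CYP71Z7 read 187, 176 and 57.2 on IR64 controls and 51.8, 55.3 and 69.4 after heat (3.10 ± 0.40), and CPS2 (1.93 ± 0.33), KSL7 (1.02 ± 0.18) and PBZ1 (1.66 ± 0.23) differed in the same direction. IR64 control replicate 3, the array with the amylase signal, was the lowest for each of these 4 genes, and without it the differences were 3.58, 2.28, 1.15 and 1.94. JAZ10 fell further in IR64, from 3408, 4113 and 4850 to 227, 213 and 210.3 (2.35 ± 0.15), and WRKY71 likewise (1.58 ± 0.14). For the DREB1 genes, which fell in both, the responses differed by 0.15 ± 0.19 for DREB1A, -0.29 ± 0.19 for DREB1B and 0.19 ± 0.29 for DREB1G, none called, while CCA1 fell further in Annapurna (-1.22 ± 0.083).

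**Figure D5:**
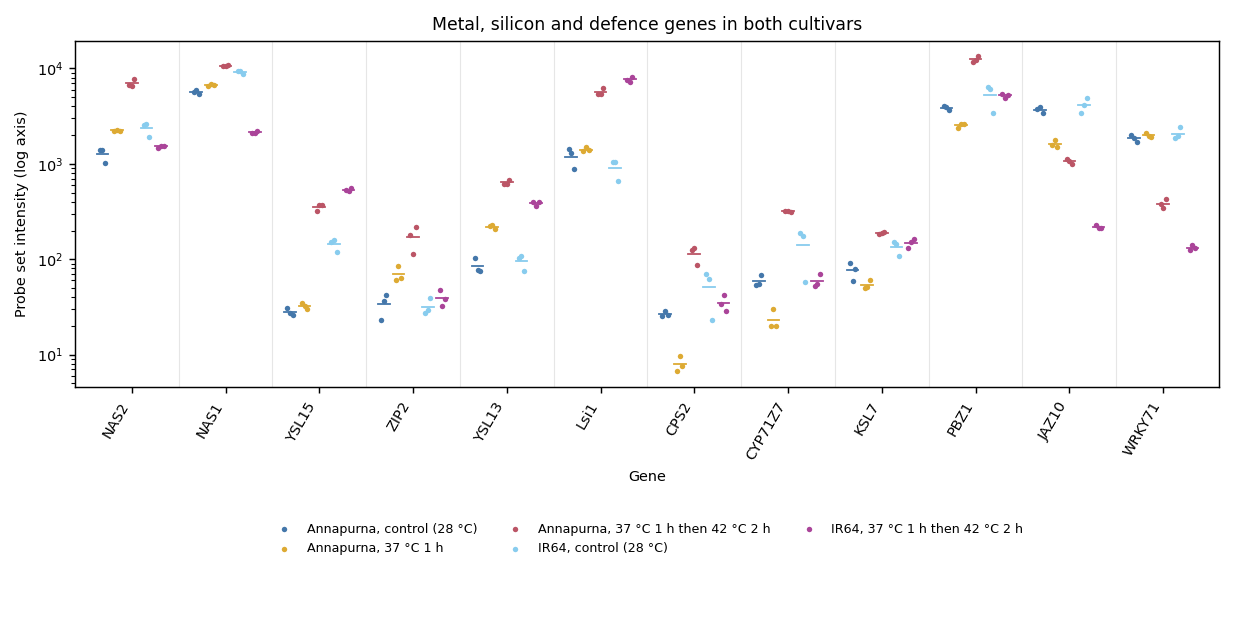
Probe set intensity on a log axis for 12 metal, silicon and defence genes on Annapurna arrays (control, 37 °C, 42 °C after 37 °C) and IR64 arrays (control, 42 °C after 37 °C). Points are single arrays and lines means of 3 arrays. NAS2 stood at a mean of 6982 in heated Annapurna and 1520 in heated IR64, and JAZ10 at 1060 and 217.

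Where a gene had several probe sets they did not always concur. Of 3444 such genes, 79 had all probe sets called in Annapurna at 42 °C against control and 417 had some called and others not. Besides the genes given above, HSP81-3 had a further probe set called at log2 1.01 and OsPIP2;1 one at 1.04, where the probe set of highest mean was at -0.11 and -0.05. Statements on such genes therefore hold for the probe set reported. Some calls near the 2-fold threshold rested on single arrays: APX4 and OsPIP2;4 were not called without heated replicate 1 or control replicate 1, Fd-GOGAT without heated replicate 2 or control replicate 1, and CDKF-3 without heated replicate 3 or control replicate 3. GST1 was not called without heated replicate 3, CYCD5-2 without heated replicate 1, and WRKY76, IAA13 and OsPIP2;4 without control replicate 2.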

How the data were processed

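Gene expression was measured on 18 Affymetrix rice arrays, 6 groups of 3, from 500 ng of total RNA labelled with biotin by 3' in vitro transcription, per the labels' protocols. The authors deposited 1 intensity per probe set and array on a linear scale, from 2.06 to 85057; GCOS is the only tool in the submitters' processing notes, and the labels name no summarization or scaling method. The deposited medians of the 18 arrays ran from 7.559 to 8.174, near the lower end of the range. On the log2(intensity + 16) scale these medians lay within 0.0372, a range that the added 16 narrows. The range of the upper quartiles on the log2 scale was wider, at 0.1916. The labels call the arrays of each group biological replicates 1, 2 and 3. They give no batch and do not say whether these came from separate plants or cultures. The p-values therefore measure only the spread between these arrays, whose number limits the precision.

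Here, log2(intensity + 16) was computed, 123 AFFX control rows were left out, and limma 3.58.1 (R 4.3.3) was fitted to 57258 probe sets with 6 group means over all 18 arrays and a variance trend. P-values were adjusted by Benjamini-Hochberg over all probe sets, and a call needed an adjusted p under 0.05 and at least a 2-fold difference. The difference of responses between cultivars was a contrast in the same fit. An exact permutation test of 3 arrays against 3 cannot go below p = 0.1, so none is given. In simulated data for this comparison, with 57258 probe sets tested, 198 of the 200 changed ones were recovered and 0 false calls were made. Recovery was not broken down by size of difference or by signal level. How it stands near the 2-fold threshold or near background was not tested.

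The annotation gave 1 gene to 22436 probe sets, several to 95 and none to 34727. This left 17905 genes, all found in the RefSeq japonica table, which was used for names and gene order only. A gene's probe set was the one of highest mean log2(intensity + 16) over all arrays. The genes named were the 15 largest called rises and falls among named genes, the 4 largest called each way and the brightest uncalled member in each of 38 lists, the 8 largest each way against 37 °C and in the difference of responses, planned chaperone, clock, dehydrin, catalase and grain genes, and the largest unnamed ones; the remaining small heat shock proteins, NRAMP5 and IRT1 were added after their values were seen. Members and lists were chosen with earlier results of these data known. Alternatives were other pseudocounts, quantile normalization, filters, a replicate block and each array left out. Probe sequences were not used here.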

Additional observations from a re-analysis of the deposited data

Results flagged for a closer look

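The difference between the responses of the cultivars, tested in the limma fit, was called for 76 of the 278 named genes called in Annapurna at 42 °C after 37 °C. The 49 of them that the naming rule picked are given here, and the counts of groups cover these 49 only. Each value is Annapurna minus IR64 on the log2 scale.

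Of 9 genes that rose in Annapurna and were not called in IR64, CYP71Z7 differed by 3.10, NAS2 by 3.08, CPS2 by 1.93, ZIP2 by 1.68, PBZ1 by 1.66, BGLU26 by 1.29 and KSL7 by 1.02. The other members of that group were RNC1, which in maize is needed to splice chloroplast introns (2.18), and SPX2, of the phosphate sensor family (1.64). RNC1 read 227, 215 and 248 on Annapurna controls and 689, 656 and 589 after heat, and 599, 630 and 788 and 401, 424 and 346 in IR64. A further 3 rose in both, and more in Annapurna: RSZ21A (1.57), YSL15 (1.26) and LAC7 (1.01).

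Of 8 genes that rose in both but less in Annapurna, 4 were small heat shock proteins: HSP26.7 (-2.73), HSP16.9B (-2.49), HSP23.2 (-1.96) and HSP18.6 (-1.73). RAB16C (-3.23), LTP-2 (-3.08), EXPB7 (-1.28) and GST1 (-1.09) made up the rest.

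Of 15 genes that fell in Annapurna and were not called in IR64, the differences were -4.03 for BGLU19, -2.99 for PP2C68, -2.84 for OsPP2C30, -2.20 for CIPK5, -2.03 for OsPP2C09 and -1.62 for AOS. OsNrx2 (-1.57), SAPK1 (-1.45), CLPD1 (-1.41), GRXC1 (-1.41), OsTPP7 (-1.39) and AMT1 (-1.28) followed, with IAA25 (-1.13), OsSWEET1b (-1.10) and ABIL1 (-1.04). AOS read 30.9, 29 and 24.5 on IR64 controls, against 194, 200.3 and 158 in Annapurna. IR64 controls were also low for PP2C68, and lower still for BGLU19 and OsTPP7, as given above. With the value added before the log, BGLU19 and OsTPP7 could not be called lower in IR64. AOS and PP2C68 had little room to be. For these genes the contrast therefore cannot tell a missing fall in IR64 from a low control level.

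Opposite calls were met by 3 genes, which fell in Annapurna and rose in IR64: ELA3 (-4.27), rab25 (-3.36) and OsSWEET15 (-2.90). Of 4 that fell in both and further in Annapurna, HSFB2A differed by -1.66, HAK27 by -1.41, CCA1 by -1.22 and OsSWEET2b by -1.14. Of 7 that fell further in IR64, JAZ10 differed by 2.35, WRKY71 by 1.58, WRKY24 by 1.43, CML16 by 1.40 ± 0.18, 4CL.2 by 1.31, NIA1 by 1.04 and JAZ9 by 1.00.

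Of the 49, 45 were still called after quantile normalization, the exceptions being ABIL1 (-0.92), GST1 (-0.95), IAA25 (-0.96) and OsSWEET1b (-0.94). Further probe sets were present for 12 of these genes, and 5 of those 14 probe sets had a called difference. For RSZ21A the differences on its other probe sets were 0.04 (adjusted p = 0.67, limma) and 0.08, neither called, the former rising by log2 2.78 in Annapurna and 2.74 in IR64. Without IR64 control replicate 3, 47 were called, GST1 (-0.92) and JAZ9 (0.88) being the exceptions.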

How the results depend on the processing

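Of the 2640 probe sets called at 42 °C after 37 °C against control, the count was 1752 with a pseudocount of 64 (708 higher, 1044 lower) and 15128 with no fold threshold (7626 higher, 7502 lower, against 1137 and 1503), and 2592 to 2723 when each array was left out. Against 37 °C, 2572 (803 higher, 1769 lower) became 14461 with no fold threshold (8037 higher, 6424 lower) and 2530 to 2620 without single arrays. For the difference of responses, 1730 became 2653 with a pseudocount of 1, 980 with 64, 36044 with no fold threshold and 1651 to 1907 without single arrays. Its share of higher calls was 35.5% and became 50.6% after quantile normalization and 74.2% with no fold threshold (26755 higher, 9289 lower). Deviations of same-numbered control and heated Annapurna arrays from their group means correlated at -0.118, 0.071 and -0.235. For the other pairs of groups compared, same-numbered values ran from -0.134 to 0.206. Deviations from a mean of so few arrays depend on each other, so whether the numbers pair samples was not tested. With the replicate block the counts were 2640, 2571 and 1730.

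Over 198 named genes, quantile normalization ended 2 calls (CLPD2, OsPIP2;4), a pseudocount of 64 ended 25, a pseudocount of 1 added 3, and dropping the fold threshold added 36. Small heat shock proteins called higher numbered 10 of 19 with a pseudocount of 64 and 15 with 1. Other probe sets of the same gene gave the opposite sign in 33 of 93 cases, of which 15 had a call on the main or the other probe set: BIPP2C1 -1.51, CIPK23 -0.26, Dhn1 0.0055 and 0.0001, EXPA7 -0.0008 and -0.0019, HSFA2D -1.72, HSFB2C 4.90, HSP18.0 -0.0626, HSP18.6 -0.0004, HSP81-3 1.01, KSL7 -0.0033, NIA1 0.0003, OsPIP2;1 1.04 and PAL 1.42. The cause of each of these changes was not tested, other than that fewer criteria or a larger pseudocount by construction add or remove calls. Signals near the lower end of the array's range limit the size of a difference in either direction.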
